A study of Mus musculus with 8 samples.

Results

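C1q-positive macrophages were examined in CD45+ cells sorted from B16-OVA tumors, a mouse melanoma that carries the model antigen ovalbumin. The paper describes the sorted cells as enriched in CD8+ T cells, so a share of all cells is not the share among tumor leukocytes. The cells were chosen by their own transcripts: at least 5 unique molecular identifiers (UMIs, each 1 captured RNA molecule) of Lyz2, at least 5 of C1qa, C1qb and C1qc together, and 0 UMIs of Cd3e (T cells), Ncr1 (NK cells) and Cd79a (B cells). Of 12828 cells that passed the filters on depth and quality, 1335 had enough Lyz2, 272 of these had enough C1q, and 238 remained after the T, NK and B cell genes were applied, which is 1.86% of the cells (95% Clopper-Pearson interval 1.63% to 2.10%). Because these genes defined the cells, their levels are given only as a description.

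The tumors grew subcutaneously in C57BL/6 mice implanted at 7 weeks of age, and no lymphodepletion was given. Mice were left non-treated (day 5) or received adoptive cell transfer (ACT) of OT1 cells, CD45.1+ CD8+ T cells with a receptor for an ovalbumin peptide. OT1 cells were untransduced (days 5 and 12) or carried a retroviral vector for a decoy of PD-1 fused to human IgG4 Fc (PD1d) together with IL-2v, a variant of IL-2 that does not bind CD25 (PD1d/IL-2v, day 12), or together with IL-33 (PD1d/IL-33, day 12). PD1d/IL-2v/IL-33 ACT was an equal mixture of the PD1d/IL-2v and PD1d/IL-33 cells (days 5, 12 and 26) and is called combination ACT below. Days were counted from cell transfer. Each of the 8 libraries was the only one of its treatment and day and pooled several mice, so differences between a pair of libraries had no replicate check, and no test was made on them. The processing record of the libraries held 5 codes, taken here as runs. Every pair compared below had different codes, so that run in this sense and treatment cannot be told apart.

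Macrophages in tumors arise largely from blood monocytes, and many take on C1q, the first component of the classical complement pathway, as they differentiate. IL-4 and IL-13 act through the transcription factor STAT6 to induce genes such as Chil3, Mrc1 and Ccl24, whereas interferon-gamma induces guanylate-binding proteins, Cxcl9, Cxcl10 and MHC genes. IL-33 signals through ST2, encoded by Il1rl1, which is best known on group 2 innate lymphoid cells, mast cells and regulatory T cells, cells that can supply IL-13 or IL-4.

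The markers of macrophages that had not been used in the choice were present. Csf1r, the receptor for the growth factor CSF-1, was detected in 214 of 238 cells, Cd68 in 225, Fcgr1 in 200, Adgre1 (F4/80) in 125 and Apoe in 115. When every cell was thinned to 2000 UMIs, Csf1r was found in 49.6% of macrophages and 0.460% of CD8+ T cells, and Adgre1 in 17.2% and 0.0958%. The share of Apoe-positive macrophages was 30.3% after thinning, against 0.517% of T cells. Lyz2-high C1q-low cells also carried these markers, with Csf1r in 59.2%, Adgre1 in 14.3%, Apoe in 36.0% and Fcgr1 in 27.9% after thinning, against 38.2% of macrophages for Fcgr1. These shares pool libraries that gave unlike numbers of each class, and comparisons within libraries are given at the end. Transcripts of monocytes were also common: Ccr2 was detected in 197 of the 238 cells and Plac8 in 211. Ly6c2 was detected in 179, but its thinned share of 60.9% lay close to the 51.3% of CD8+ T cells, which also express it. No UMI was found of Lyve1, Timd4 or Marco, genes of tissue-resident macrophages, and Cd163 was found in 1 cell. For each gene at 0 of 238 cells, a share of cells with a UMI of up to 1.26% remained possible.

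Most markers of other cells were low in the 238 cells. Flt3, a marker of dendritic cells, was at 0, Zbtb46 was found in 2 cells, Pmel of melanoma cells in 1, and Cpa3 of mast cells and Ms4a1 of B cells in 0. Summed over a library and scaled to the total (CPM, the usual per-million scale), the list of 9 T cell genes lay between 0 and 40.3 CPM in macrophages of the 8 libraries and between 4237 and 7703 CPM in CD8+ T cells. The list of 5 mast cell and basophil genes was at 0 in every library. A list for plasmacytoid dendritic cells summed to 251 to 522 CPM over the 8 libraries, mostly from Bst2, an interferon-induced gene that many cells express, at 202 to 491 CPM. The sum of neutrophil genes was 382 CPM after combination ACT at day 5 and at most 103 CPM elsewhere, with S100a8 as the leading gene at 258 CPM. In that library the NK list also stood at 144 CPM, led by Gzma, of which 79.5% came from 1 cell. The part of these genes in the results below was not tested. Of the macrophage barcodes, 8 occurred as a sequence in another library too, and 0 were macrophages in both. Across all barcodes, 143 sequences were shared between libraries.

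Cells on either side of the C1q threshold had similar levels of Csf1r. The 18 macrophages with 5 or 6 C1q UMIs had 422 CPM of Csf1r, and the 18 Lyz2-high cells with 3 or 4 had 402 CPM. Apoe differed, at 616 CPM inside and 37.0 CPM outside. Ccl24 was high on both sides, at 3535 and 2799 CPM, while in 899 Lyz2-high cells with 0 C1q UMIs it was at 621 CPM. These values pool libraries that differed in Ccl24 and in the share of C1q-positive cells, and the part of that mix was not tested. The median depth was 11952.5 UMIs inside and 10793.5 outside.

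Macrophages were unevenly spread over the libraries. Their number was 6 in non-treated tumors, 28 and 4 after untransduced ACT at days 5 and 12, 43 after PD1d/IL-2v ACT, 3 after PD1d/IL-33 ACT, and 96, 25 and 33 after combination ACT at days 5, 12 and 26. As a share of Lyz2-high cells without T, NK or B cell genes, a denominator that does not depend on the number of T cells in the library, they made up 48.2% (41.1% to 55.4%) after combination ACT at day 5, the highest of the 8, and 9.93% (6.70% to 14.0%) after untransduced ACT on the same day. The shares were 15.0% (11.1% to 19.6%) after PD1d/IL-2v ACT at day 12, 23.4% (15.7% to 32.5%) and 12.7% (8.90% to 17.4%) after combination ACT at days 12 and 26, and 25%, 28.6% and 8.82% in non-treated, untransduced day 12 and PD1d/IL-33 tumors, each from fewer than 10 macrophages. All intervals are 95% intervals that cover counting error only. The gate and the denominator both rest on raw UMI thresholds, so the shares also depend on depth and on the level of Lyz2. The median C1q-low cell had 11797 UMIs after combination ACT at day 5 and 7892 after untransduced ACT. The median macrophage had 19.5 and 93 UMIs of Lyz2 in the same order. The part of either in the day 5 shares was not tested.

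Over libraries as replicates, no difference in this share between tumors with and without IL-33 was detected. The 4 IL-33 libraries averaged 23.3% ± 17.7 (SD, n = 4) and the other 4 averaged 19.6% ± 8.65 (SD, n = 4), a difference of 3.66 percentage points with p = 0.83 in a two-sided exact permutation test, for which the smallest possible p was 0.0286. The sign rested on 1 library, since the difference was -4.66 percentage points without combination ACT at day 5. The libraries of either arm differed in day, in IL-2v and in run.

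**Figure D1:**
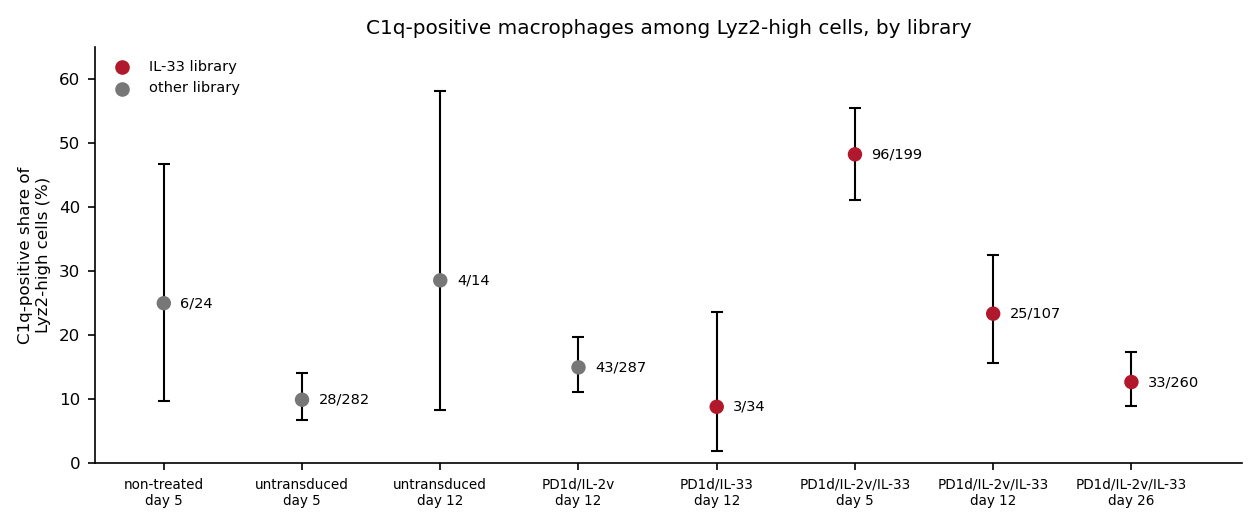
Share of Lyz2-high cells (y axis, percent) that were C1q-positive macrophages in each of the 8 libraries (x axis; PD1d/IL-2v/IL-33 marks combination ACT, red the IL-33 libraries and grey the others), with 95% Clopper-Pearson intervals and the numbers of macrophages and Lyz2-high cells. The library after combination ACT at day 5 has the highest share, at 48.2%, and the other libraries lie between 8.82% and 28.6%.

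The 5 libraries with at least 25 macrophages were used for expression. UMIs were summed over the macrophages of a library, giving 307145 UMIs after untransduced ACT at day 5, 570408 at day 12 in the PD1d/IL-2v library, and 1234595, 183569 and 418494 after combination ACT at days 5, 12 and 26. The median macrophage had 11287, 13353, 12147, 7299 and 11631 UMIs in the same order, and a median of 2.12% to 3.83% mitochondrial UMIs. At day 5 the mitochondrial median was 2.12% after untransduced ACT and 3.83% after combination ACT. Ribosomal medians were 14.1% and 17.8% in that order, and the part of either in the day 5 differences was not tested. A single UMI was worth 0.810 to 5.45 CPM. Libraries were compared as the log2 ratio of CPM + 10 for genes that reached 50 UMIs over the pair, with an interval from exact Poisson limits, and a gene was called past 2-fold at a log2 ratio of 1 or more in size. These intervals cover the counting error of summed UMIs only. They leave out the spread between cells and between mice, so they are too narrow for the level in macrophages. The scale understates the ratio of low genes. In sums over cells, 1 deep cell can weigh heavily: the deepest macrophage held 11.2% of the UMIs after combination ACT at day 12 and 2.24% to 6.01% in the other 4 libraries.

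At day 5, macrophages after combination ACT carried far more RNA of genes of the IL-4/IL-13 response than those after untransduced ACT. Of the 18 genes listed for that response, 12 had enough UMIs, 11 were past 2-fold higher and 0 lower, with a median log2 ratio of 2.99. Among all 3641 genes compared, 447 (12.3%) were past 2-fold higher and 151 (4.15%) lower, with a median of 0.15. The combination library was the deeper one, and 5 of the 11 higher listed genes and 269 of the 447 higher genes had fewer than 10 UMIs after untransduced ACT, so that they entered through the library where they were high and these counts are a description only. When genes were instead chosen by at least 50 UMIs in macrophages of the 6 libraries outside the pair, 11 listed genes entered, 10 were past 2-fold higher and 0 lower with a median of 1.69, against 256 of all 3078 genes (8.32%) higher and 175 lower with a median of 0.05. These 6 libraries included combination ACT at days 12 and 26. The choice was therefore not free of the treatment, and its counts are also a description only. Over the 3641 genes, scaling by trimmed mean of M values (TMM) moved the median from 0.15 to 0.03, and the higher share of all genes past 2-fold from 74.7% to 64.5%, with 9 of the 12 listed genes still past 2-fold higher. In the Lyz2-high cells with little C1q (C1q-low) of the same pair, the 11 listed genes compared also had a high median, at 1.78. The median of all genes compared in those cells was 0.13. The list's summed level was 17648, 9637 and 1372 CPM after combination ACT at days 5, 12 and 26, and between 550 and 2095 CPM in the other 5 libraries. The level of the list in the median macrophage was 16166, 5942 and 770 CPM on these days.

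Ccl24, which encodes the eosinophil attractant eotaxin-2, was the leading gene. Its level was 6.51 CPM (2 UMIs) after untransduced ACT at day 5, 251 CPM in the PD1d/IL-2v library of day 12, and 11036, 2729 and 98.0 CPM after combination ACT at days 5, 12 and 26. In the libraries with fewer than 10 macrophages it was at 0 UMIs in non-treated and untransduced day 12 tumors and at 1 UMI after PD1d/IL-33 ACT. The day 5 log2 ratio of 9.39 (8.36 to 10.00) was the largest of the comparison. Ccl24 was found in 96 of 96 macrophages of that library, with a median of 111.5 UMIs in a cell and a range from 1 to 730, in 20 of 25 at day 12 and in 2 of 33 at day 26, where 1 cell held 92.7% of it. After thinning, 97.9% (92.7% to 99.7%) of the day 5 macrophages had a UMI of Ccl24 and 1.62% of CD8+ T cells of the same library. The Lyz2-high cells with little C1q were at 2.97, 98.3, 4110, 680 and 98.9 CPM in the 5 libraries, also highest at day 5 after combination ACT, and at day 26 at the level of macrophages.

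**Figure D2:**
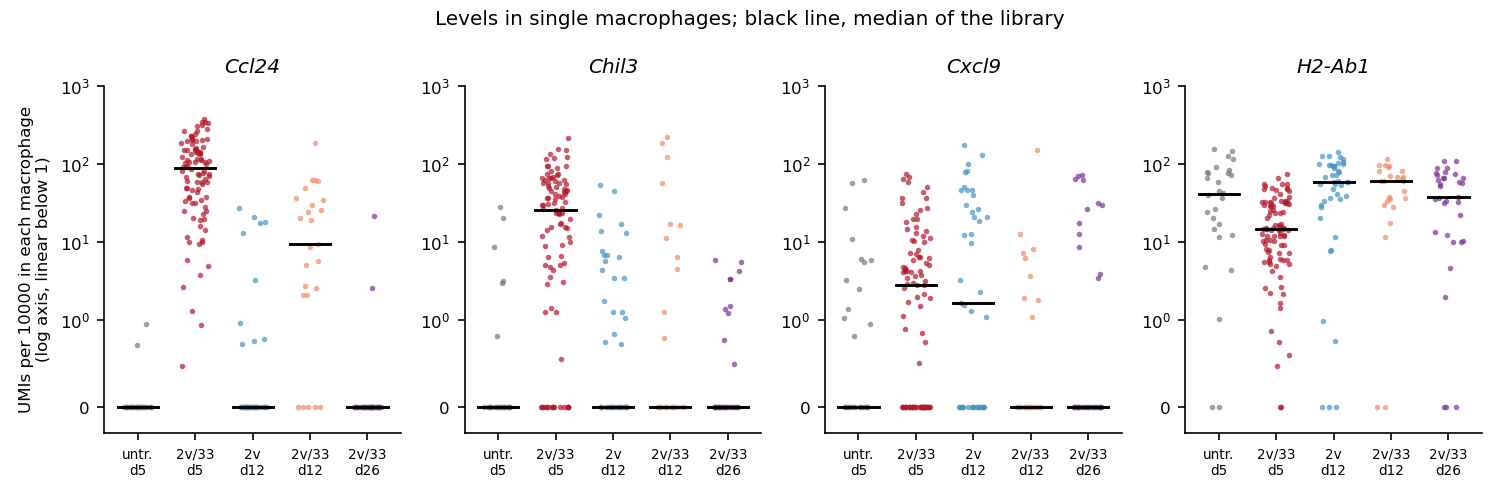
UMIs per 10000 (y axis, log scale that is linear below 1) of Ccl24, Chil3, Cxcl9 and H2-Ab1 in single macrophages of 5 libraries (x axis; untr. = untransduced ACT, 2v = PD1d/IL-2v, 2v/33 = combination, d = day), each point 1 cell and each black line the library's median. All 96 cells after combination ACT at day 5 lie above 0 for Ccl24, whereas 2 of 28 do after untransduced ACT.

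Other secreted proteins and lectins of the same list were higher too. Chil3, the chitinase-like protein Ym1, was at 257 CPM after untransduced ACT at day 5, 519 CPM in the PD1d/IL-2v library, and 3543, 2936 and 83.6 CPM after combination ACT at days 5, 12 and 26, a day 5 log2 ratio of 3.73 (3.42 to 4.06). It was found in 80 of 96 macrophages at day 5, but at day 12 in 11 of 25, with 70.5% of its UMIs in 1 cell and 975 CPM without that cell. Mrc1, the mannose receptor CD206, stood at 19.5 and 22.8 CPM in the libraries without IL-33 and at 302, 267 and 47.8 CPM after combination ACT at days 5, 12 and 26, a day 5 log2 ratio of 3.40 (2.56 to 4.20). The non-treated and PD1d/IL-33 libraries gave 183 and 354 CPM of Mrc1, each from 2 cells. The lectin Mgl2 was at 143 CPM and 0 UMIs in the day 5 pair, at least 14.6-fold higher at the floor of 3 counts in a library, and its neighbour Clec10a at 156 and 13 CPM. These lectin genes are close copies, so their split is uncertain.

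Regulators and surface proteins of the list also stood higher at day 5. Cish, a feedback inhibitor of cytokine signalling, was at 221 CPM in 84 of 96 cells after combination ACT and at 16.3 CPM in 4 of 28 after untransduced ACT, and at 147 and 42.1 CPM in the day 12 pair. Il4ra, the receptor subunit shared by IL-4 and IL-13, was at 185 CPM in the first and 65.1 CPM in the second, a log2 ratio of 1.37 (0.79 to 1.99). Pdcd1lg2, which encodes the PD-1 ligand PD-L2, was at 149 and 68.4 CPM, with a log2 ratio of 1.02 (0.44 to 1.64) that was below 2-fold under TMM scaling (0.90), without the deepest macrophages (0.97) and in macrophages with at least 10 C1q UMIs (0.76). Cd274, encoding PD-L1, differed little, at 420 and 384 CPM (0.13, -0.16 to 0.42). Among the receptors for the engineered and related cytokines, 2 of 9 were past 2-fold higher, Il4ra and Csf2rb, and Csf2rb has a close copy. The share of all 3641 genes past 2-fold higher was 12.3%. Il1rl1 itself was at 0 UMIs in macrophages of all 8 libraries, a level of at most 2.43 CPM in the deepest of them at the floor of 3 counts, and at 35.7 CPM in CD8+ T cells of that library.

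**Figure D3:**
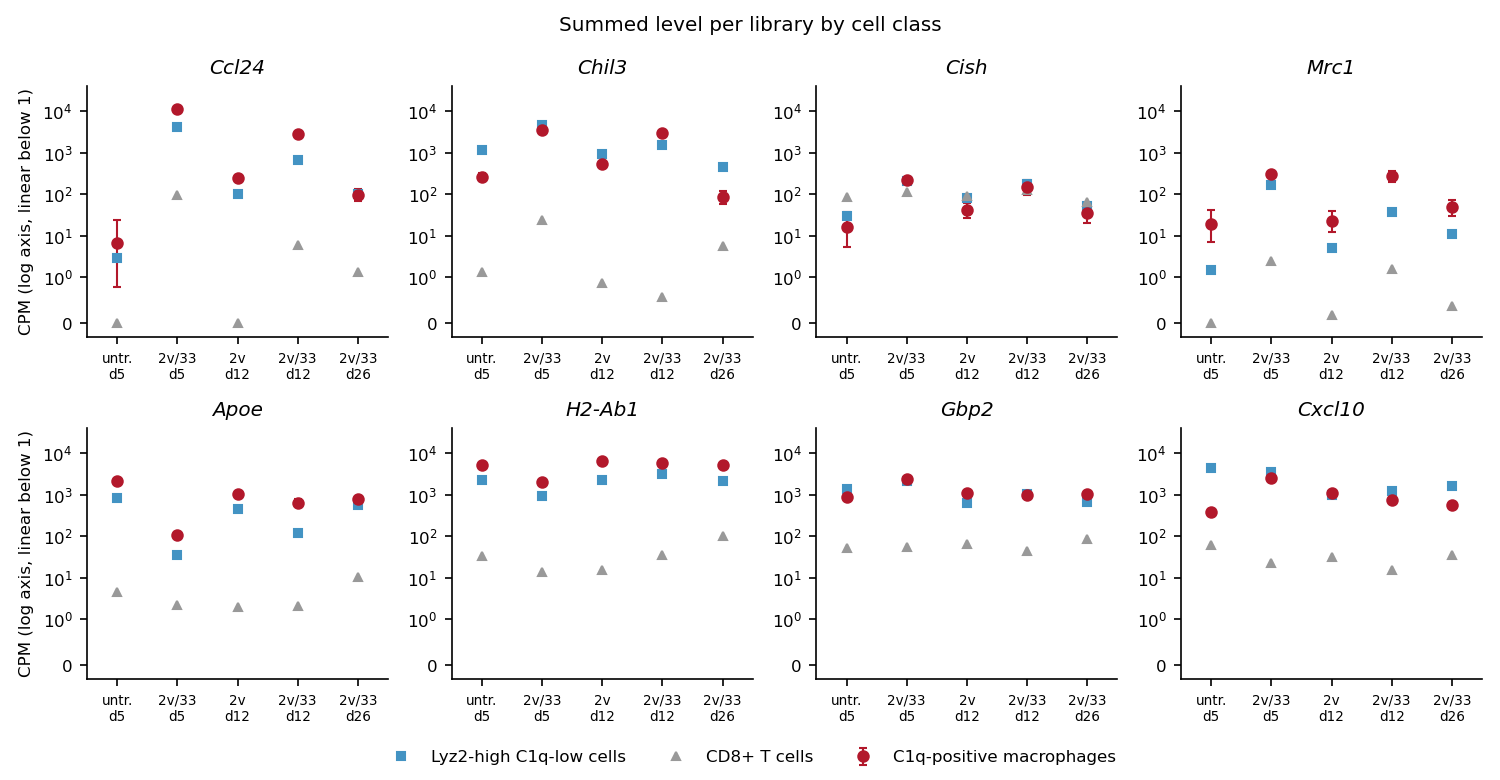
Summed level (y axis, CPM on a log scale that is linear below 1) of 8 genes in C1q-positive macrophages (red circles with 95% Poisson intervals), Lyz2-high C1q-low cells (blue squares) and CD8+ T cells (grey triangles) of 5 libraries (x axis; untr. = untransduced ACT, 2v = PD1d/IL-2v, 2v/33 = combination, d = day). Ccl24 reaches 11036 CPM in macrophages after combination ACT at day 5, the library in which Apoe is lowest at 106 CPM.

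Promoter windows of Chil3 and Pdcd1lg2 are shown because these members were higher together and carry a motif of the STAT family. In the 250 bases before the gene start (RefSeq, build GRCm38.p6, read 5′ to 3′ on the gene's strand), the letters TTCNNNGAA, or the same with 4 free bases between TTC and GAA, searched on both strands, are forms that STAT factors bind. Capitals mark the match, which begins 172 bases before the start of Chil3 (chr3:106167565-106167814, minus strand) and 82 bases before that of Pdcd1lg2 (chr19:29410669-29410918, plus strand).
Chil3: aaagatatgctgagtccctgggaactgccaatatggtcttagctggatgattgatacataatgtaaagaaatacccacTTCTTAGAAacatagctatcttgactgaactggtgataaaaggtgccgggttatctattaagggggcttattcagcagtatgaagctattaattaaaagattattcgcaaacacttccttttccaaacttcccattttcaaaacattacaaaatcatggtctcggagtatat
Pdcd1lg2: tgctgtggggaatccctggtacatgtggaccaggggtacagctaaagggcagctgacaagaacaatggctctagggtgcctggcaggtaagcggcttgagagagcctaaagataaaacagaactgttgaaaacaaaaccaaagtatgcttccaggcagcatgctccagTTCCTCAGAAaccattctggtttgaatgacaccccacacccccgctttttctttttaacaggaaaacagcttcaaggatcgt
The first motif was in 2 of the 11 listed genes with a promoter entry (18.2%) and in 7.18% of 27025 promoters, the second in 3 (27.3%) and in 5.86%. The first motif was in 5 of 15 promoters of the interferon-gamma list (33.3%), a larger share than in the IL-4/IL-13 list, and the second in 0. A match is a description of the letters, not of a bound site.

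Genes of the interferon-gamma response were also higher at day 5 after combination ACT, though by less. Of the 20 listed, 19 were compared, 8 were past 2-fold higher and 0 lower, with a median log2 ratio of 0.87. Among all 3641 genes compared 12.3% were past 2-fold higher and 4.15% lower, with a median of 0.15. Cxcl10, a ligand of CXCR3, was at 2501 CPM against 374 CPM (2.71, 2.45 to 2.98), and 1103, 757 and 571 CPM in the PD1d/IL-2v library and after combination ACT at days 12 and 26. Gbp2, a guanylate-binding protein of cell-autonomous defence, was at 2411 CPM in 95 of 96 cells against 873 CPM in 24 of 28 (1.46, 1.28 to 1.64), and between 1002 and 1115 CPM in the other 3 libraries. Socs1, the inhibitor of JAK signalling, and Iigp1, an immunity-related GTPase, had log2 ratios of 2.18 (1.73 to 2.67) and 2.63 (1.96 to 3.33). Cxcl9, the other CXCR3 ligand of the list, was not past 2-fold, at 883 and 726 CPM (0.28, 0.07 to 0.49), and was highest after PD1d/IL-2v ACT at 2218 CPM. Unlike Ccl24, Cxcl10 was not higher in the Lyz2-high C1q-low cells of the same pair, at 3564 and 4307 CPM. The 18 listed genes compared in those cells had a median of 0.34, against 0.13 for all genes.

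Windows of Gbp2 and Cxcl10 are shown for a motif that many promoters of this list hold. The letters GAAA, 2 free bases and GAAA again, searched on both strands, are the core of elements that IRF factors bind, and their match begins 59 bases before the start of Gbp2 (chr3:142620413-142620662, plus strand, match on the opposite strand) and 213 bases before that of Cxcl10 (chr5:92348890-92349139, minus strand).
Gbp2: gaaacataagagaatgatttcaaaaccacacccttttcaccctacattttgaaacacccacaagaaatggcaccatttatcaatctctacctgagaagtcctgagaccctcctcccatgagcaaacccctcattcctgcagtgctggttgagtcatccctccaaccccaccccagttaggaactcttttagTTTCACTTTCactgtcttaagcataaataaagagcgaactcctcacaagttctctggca
Cxcl10: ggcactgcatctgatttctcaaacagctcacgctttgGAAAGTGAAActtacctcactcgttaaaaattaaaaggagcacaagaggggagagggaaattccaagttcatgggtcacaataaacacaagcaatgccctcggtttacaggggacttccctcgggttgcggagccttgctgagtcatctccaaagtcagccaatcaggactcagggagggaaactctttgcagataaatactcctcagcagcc
This motif was in 10 of the 15 listed genes with a promoter entry (66.7%), in 0 of the 11 of the IL-4/IL-13 list and in 3.04% of all 27025 promoters.

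Genes of MHC class II antigen presentation were lower in the same library. Of 9 MHC class II genes compared at day 5, 0 were past 2-fold higher and 4 lower: H2-Aa, H2-Ab1, H2-Eb1 and the invariant chain Cd74. Among all 3641 genes 12.3% were past 2-fold higher and 4.15% lower. H2-Ab1 was at 1988 CPM after combination ACT and 5287 CPM after untransduced ACT (-1.41, -1.50 to -1.32), and at 6434, 5693 and 5063 CPM after PD1d/IL-2v ACT at day 12 and after combination ACT at days 12 and 26. It was still detected in 94 of 96 cells. Cd74 was at 7636 against 19281 CPM, and the summed class II list at 15331 against 37871 CPM. MHC class I genes held near the background, with 1 of 12 past 2-fold higher (Nlrc5) and a median of 0.06. The Lyz2-high C1q-low cells had a median of -0.66 for class II in the same pair, close to the -0.64 of macrophages.

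Genes of lipid handling, lysosomes and iron storage were lower in the same day 5 library. Of 20 genes of lipid handling and lysosomes, 0 were past 2-fold higher and 7 lower, with a median of -0.68, and of 5 iron and heme genes 3 were lower (Hmox1, Fth1 and Ftl1), or 2 without the deepest macrophages, when the log2 ratio of Hmox1 was -0.30. The share of all 3641 genes past 2-fold lower was 4.15%. Apoe, the apolipoprotein that carries lipid out of macrophages, was at 106 CPM after combination ACT and 2126 CPM after untransduced ACT (-4.20, -4.46 to -3.95), with 44.0% of the latter in 1 cell, and at 1040, 643 and 791 CPM in PD1d/IL-2v and in combination ACT tumors at days 12 and 26. Without the top cell of each library its log2 ratio was -3.72. Ctsd, a lysosomal protease, was at 170 against 843 CPM, and Fth1, the ferritin heavy chain, at 4263 against 18779 CPM. The markers that define the cells were lower as well: Lyz2 was at 2769 against 9299 CPM and C1qa at 318 against 1647 CPM. Of 12 genes of macrophage identity compared, 5 were past 2-fold lower (Cd68, Cd14, Aif1, Ms4a7 and Adgre1) and 1 higher, the integrin Itgam, with a median of -0.96. Cd68, a glycoprotein of macrophage lysosomes, was at 399 against 1130 CPM (-1.48, -1.67 to -1.28). Adgre1 lay at the threshold, at 77.8 against 166 CPM, and was below it at a log2 ratio of -0.78 without the deepest macrophages, and Csf1r differed by -0.40. In the C1q-low cells the list of lipid and lysosome genes had a median of -0.01, the iron and heme list a median of -0.75, and Apoe a log2 ratio of -4.16.

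Monocyte genes were higher in the day 5 library, at 5 of 9 past 2-fold and a median of 1.14, among them Chil3, Fn1, Plac8 and Hp. For all 3641 genes the shares past 2-fold were 12.3% higher and 4.15% lower, with a median of 0.15. Chil3 and Fn1 are also on the IL-4/IL-13 list. Plac8 was at 4009 CPM against 1367 CPM, and 2177, 2855 and 2091 CPM in PD1d/IL-2v and combination ACT tumors at days 12 and 26. Of 13 genes of hypoxia and glycolysis 7 were past 2-fold lower, the enzymes Ldha, Aldoa, Pgam1, Gapdh and Tpi1, the mitophagy gene Bnip3 and the cytokine Mif, and 2 higher, the enzymes Hk2 and Pgk1. Ldha was at 550 against 1517 CPM. That list was not lower in the C1q-low cells, where its median was 0.21. Several of these enzymes, and the ferritins, have close copies or pseudogenes that can take reads from them.

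Of 12 inflammatory cytokines 1 was past 2-fold higher (Il6) and 4 lower (Il1b, Cxcl1, Cxcl2 and Cxcl3), with a median of -0.27, and without the top cells 2 were lower and the log2 ratio of Cxcl1 turned from -1.53 to 0.62, as 92.7% of its UMIs after untransduced ACT came from 1 cell. Over all 3641 genes 12.3% were past 2-fold higher and 4.15% lower. With genes chosen by the other 6 libraries, 0 of 8 were higher and 2 lower, with a median of -0.19, so Il6 was not among the 8. Cxcl2, an attractant of neutrophils, was at 1998 against 4753 CPM (-1.25, -1.34 to -1.15). Il6 was at 385 CPM in 55 of 96 cells against 35.8 CPM in 4 of 28 (3.11, 2.40 to 3.83), whereas Il1b was at 3826 against 9777 CPM (-1.35, -1.42 to -1.28) and Tnf at 1371 against 1387 CPM. Il1b nevertheless remained among the abundant transcripts, with a UMI in 80 of 96 cells. At the lower end of the comparison, Rgs1, a regulator of G protein signalling, was the lowest of all genes compared, at 31.6 against 1517 CPM (-5.20, -5.58 to -4.82), followed by Apoe, the tetraspanin Cd81 (10.5 against 348 CPM), Cxcl3 and Ms4a7 (12.2 against 273.5 CPM). The value of Cxcl3 came from 1 cell, which held 99.3% of its UMIs after untransduced ACT, and was 0.42 without the top cells. At the upper end S100a8 followed Ccl24, at 258 CPM in 44 of 96 cells against 6.51 CPM (2 UMIs). S100a8 reached 1272 CPM in the C1q-low cells of the same library and was on the neutrophil list.

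Of 4 genes of resident macrophages compared at day 5, 3 were past 2-fold higher (F13a1, Mrc1 and Ccl8) and 0 lower, with a median of 2.20. Of these, 2 had fewer than 10 UMIs after untransduced ACT, and with genes chosen by the other 6 libraries 3 of 6 were higher and 2 lower, with a median of 0.48. F13a1, a subunit of coagulation factor XIII, was at 250 against 58.6 CPM (1.92, 1.32 to 2.56), whereas 92.7% of Ccl8 came from 1 cell, and without the top cells 2 of the 4 genes were higher with a median of 1.28. Mrc1 is also on the IL-4/IL-13 list, and the other 8 listed genes had too few UMIs. Of 11 type I interferon-stimulated genes 2 were past 2-fold higher (Ifit1 and Oasl1) and 1 lower (Irf7), with a median of 0.09, and of 7 chosen by the other libraries 0 were higher and 1 lower. Over all 3641 genes 12.3% were past 2-fold higher and 4.15% lower, with a median of 0.15, so the type I list lay near the background. Of 6 complement genes C3, the central component, was higher at a log2 ratio of 1.71 (1.31 to 2.14), and Cfb and C5ar1 were lower. The 1 of 6 higher is also close to the share of all genes. Of 9 matrix genes 3 were higher, the metalloproteinases Mmp12 and Mmp13 and fibronectin (Fn1), and Mmp14 was lower. Mmp12 had a log2 ratio of 1.52, which was 0.60, below 2-fold, in macrophages with at least 10 C1q UMIs and 3.55 without the top cells, as 1 cell held 95% of it after untransduced ACT. Of 10 Fc and phagocytic receptors Axl was lower, and of 9 checkpoint genes Pilra was lower and Pdcd1lg2 lay at the threshold, 1 of 9 being close to the 12.3% of all genes. The single lower gene in either list is not read as a result about that list.

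**Figure D4:**
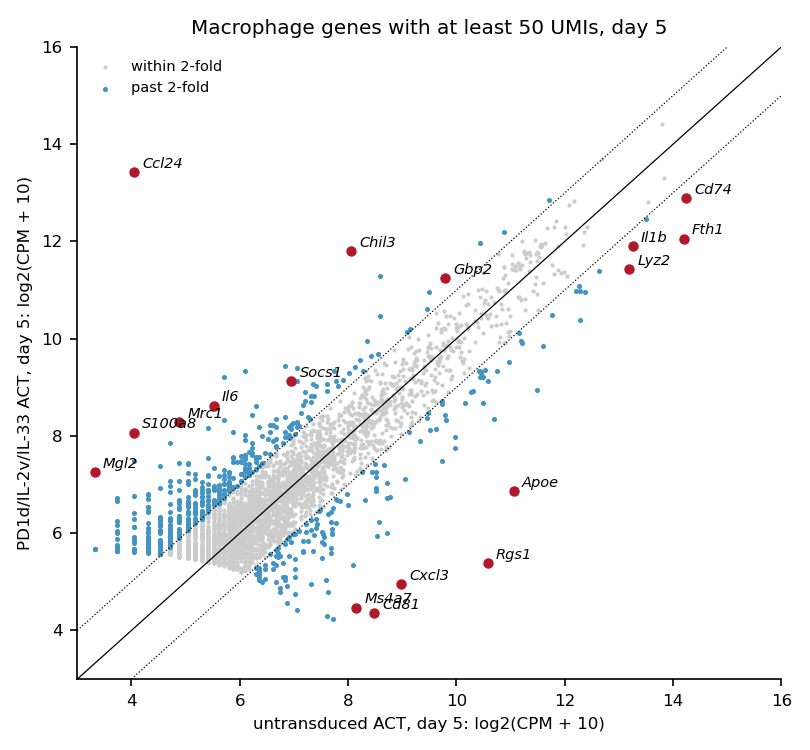
Level of each of 3641 genes in macrophages after untransduced ACT (x axis) and combination ACT (y axis) at day 5, as log2(CPM + 10), with genes past 2-fold in blue and named genes labelled. Ccl24 lies farthest above the diagonal and Rgs1 farthest below it, and 447 genes are past 2-fold higher and 151 lower.

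At day 12 the libraries with PD1d/IL-2v cells alone and with PD1d/IL-2v and PD1d/IL-33 cells were compared, and genes of the IL-4/IL-13 response again stood out. Of 11 compared, 8 were past 2-fold higher with IL-33 and 0 lower, with a median of 1.59, against 103 of all 2019 genes (5.1%) higher and 154 (7.63%) lower and a median of -0.07. With genes chosen by the macrophages of the other 6 libraries, 7 of 12 listed genes were past 2-fold higher and 0 lower, with a median of 1.13. Of all 4439 genes chosen that way, 325 (7.32%) were higher and 348 lower, with a median of 0.01. The choosing libraries included combination ACT at day 5, the deepest library and the one where the list was highest. Listed genes could therefore still enter through that treatment, and these counts are a description only. Ccl24 had a log2 ratio of 3.39 (3.13 to 3.66), Mrc1 of 3.08 (2.37 to 3.77) and Chil3 of 2.48 (2.27 to 2.68). Pdcd1lg2 was at 163 against 73.6 CPM. Retnla, encoding the secreted protein Fizz1, was at 528 CPM against 0 UMIs, at least 100.5-fold higher at the floor of 3 counts, but came from 2 of 25 cells and entered the count of 8 through that library alone. The deepest macrophage of the IL-33 library bore on some of these values: without the deepest macrophage of each library 7 of the 11 genes were past 2-fold higher with a median of 1.31, Ccl24 was at 3.38 and Chil3 at 0.85, below 2-fold. In the C1q-low cells the 9 genes of the list that were compared had a median of 0.53, against -0.03 for all genes.

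Several type I interferon-stimulated genes and chemokines were lower with IL-33 at day 12. Of 5 type I interferon-stimulated genes 4 were past 2-fold lower (Oasl2, Irf7, Rtp4 and Xaf1), with a median of -1.21. Xaf1 had 8 UMIs with IL-33 and entered through the other, deeper library. With genes chosen by the other 6 libraries 5 of 12 were lower and 1 higher, with a median of -0.84. Of all 4439 genes chosen that way, 348 were lower and 325 (7.32%) higher. Among the 2019 genes that reached 50 UMIs over the pair, 154 (7.63%) were lower and 103 (5.1%) higher. In the C1q-low cells the 5 listed genes compared had a median of -0.42, against -0.03 for all genes. Irf7, the amplifier of type I interferon, was at 125 CPM against 377 CPM after PD1d/IL-2v ACT (-1.52, -2.14 to -0.93). The 18 interferon-gamma genes compared divided, with 2 higher, the GTPases Iigp1 and Irgm1, and 2 lower, Cxcl9 and Slamf7, and a median of -0.15 against -0.07 for all genes. Of 13 chemokines 7 were lower, with a median of -1.09, and 1 was higher: Ccl3 was at 65.4 against 652 CPM (-3.14, -3.93 to -2.40), Ccl4 at 430 against 1367 CPM and Cxcl9 at 479 against 2218 CPM (-2.19, -2.51 to -1.88), and Ccl8 was at 1275 against 244 CPM with 62.0% of it in 1 cell. Of the 7 lower chemokines, Ccl5 (8 UMIs) and Pf4 (2 UMIs) had fewer than 10 UMIs with IL-33 and entered through the PD1d/IL-2v library, whereas all 13 reached 50 UMIs in the other 6 libraries. In the C1q-low cells the 11 chemokines compared had a median of -0.25, against -0.03 for all genes. Ccl3 and Ccl4 were also abundant in CD8+ T cells of both libraries, at 206 to 1335 CPM. Cd74 was the 1 class II gene of 8 past 2-fold lower, at 10748 against 22614 CPM, and its log2 ratio of -1.07 was -0.97 without the deepest macrophages. H2-Ab1 had a log2 ratio of -0.18.

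Among the highest ratios, Hnrnpa0, an RNA-binding protein, was at 262 CPM in 19 of 25 cells with IL-33 and at 21.0 CPM in 8 of 43 cells without. Among the lowest genes were Slpi, a protease inhibitor of myeloid cells, at 5.45 CPM (1 UMI) against 295 CPM, with a log2 ratio of -4.30 (-4.94 to -2.90), Egln3, an oxygen sensor, at 0 against 110 CPM, at least 6.76-fold lower, and the lectin Clec4e, at 59.9 against 500 CPM. Of all genes past 2-fold, 59 had fewer than 10 UMIs in 1 library of the pair, and 1 of these was higher. Slpi and Egln3 were among them and entered through the deeper PD1d/IL-2v library. Gpnmb, a glycoprotein of lysosomes, was at 768 against 21.0 CPM but came from 1 cell of 25, and its log2 ratio turned from 4.65 to -1.68 without the deepest macrophages.

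After combination ACT the IL-4/IL-13 genes were lower at day 26 than at day 12. The day 12 library is the same as in the comparison above. Of 9 genes compared 0 were past 2-fold higher and 6 lower, among them Chil3, Retnla, Mrc1, Ccl24 and Tgm2, with a median of -2.12, while of all 1668 genes 70 (4.2%) were higher and 79 (4.74%) lower (8.93% either way) with a median of 0.03. Ccl24 had a log2 ratio of -4.67 (-5.11 to -4.24), Chil3 of -4.98 (-5.45 to -4.53) and Mrc1 of -2.26 (-2.94 to -1.58). Retnla was at 0 UMIs at day 26, at least 73.7-fold lower, but entered the count of 6 through the day 12 library alone. With genes chosen by the other 6 libraries, 9 of 12 listed genes were past 2-fold lower and 0 higher, with a median of -1.85. Of all 4568 genes chosen that way, 267 were lower and 326 (7.14%) higher, with a median of 0.05. Combination ACT at day 5, where the list was highest, was again among the choosing libraries, so these counts are a description only. Without the deepest macrophage of each library 6 of the 9 were lower, with a median of -1.83. In the C1q-low cells the 7 listed genes compared had a median of -0.71, against 0.02 for all genes.

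Of 8 class II genes compared between days 12 and 26, 0 were past 2-fold either way, and of 16 interferon-gamma genes 2 were higher (Cxcl9 and Slamf7) and 2 lower (Irf1 and Iigp1). Over all 1668 genes 4.2% were past 2-fold higher and 4.74% lower. Cxcl9 was at 1498 against 479 CPM (1.62, 1.31 to 1.95). Among the highest ratios were Fos, an immediate early transcription factor, at 2196 against 468 CPM (2.20, 1.89 to 2.53), Cnn2 at 220 against 38.1 CPM, the heat-shock cofactor Dnajb1 at 117 against 16.3 CPM (3 UMIs) and the stress gene Ddit4 at 115 against 10.9 CPM (2 UMIs). Of all genes past 2-fold, 21 had fewer than 10 UMIs in 1 library of the pair, and 19 of these were higher. Dnajb1 and Ddit4 were among them and entered through the deeper day 26 library. In the other libraries Fos was at 2849 CPM after untransduced ACT at day 5, 2249 CPM in the PD1d/IL-2v library and 482 CPM after combination ACT at day 5. Pf4 was at 167 against 10.9 CPM, with 91.4% of it in 1 cell. Ly6c2, a monocyte gene that T cells also express, was at 299 against 1002 CPM (-1.71, -2.04 to -1.39), and Mmp12, a macrophage elastase, at 55.0 against 823 CPM. Of 4 genes of resident macrophages 1 was past 2-fold higher (Pf4) and 2 lower (Mrc1 and Ccl8), with a median of -1.44, and with genes chosen by the other 6 libraries 3 of 6 were higher and 2 lower, with a median of 0.19. Of 17 genes of lipid handling and lysosomes 1 was higher (Ctsl) and 4 lower (Gpnmb, Spp1, Cd63 and Ctsd), with a median of -0.31. These counts changed with single cells: without the deepest macrophages 2 were higher and 1 lower, with a median of 0.26, and the log2 ratios of Gpnmb (0.82), Spp1 (0.17) and Ctsd (0.16) changed sign.

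**Figure D5:**
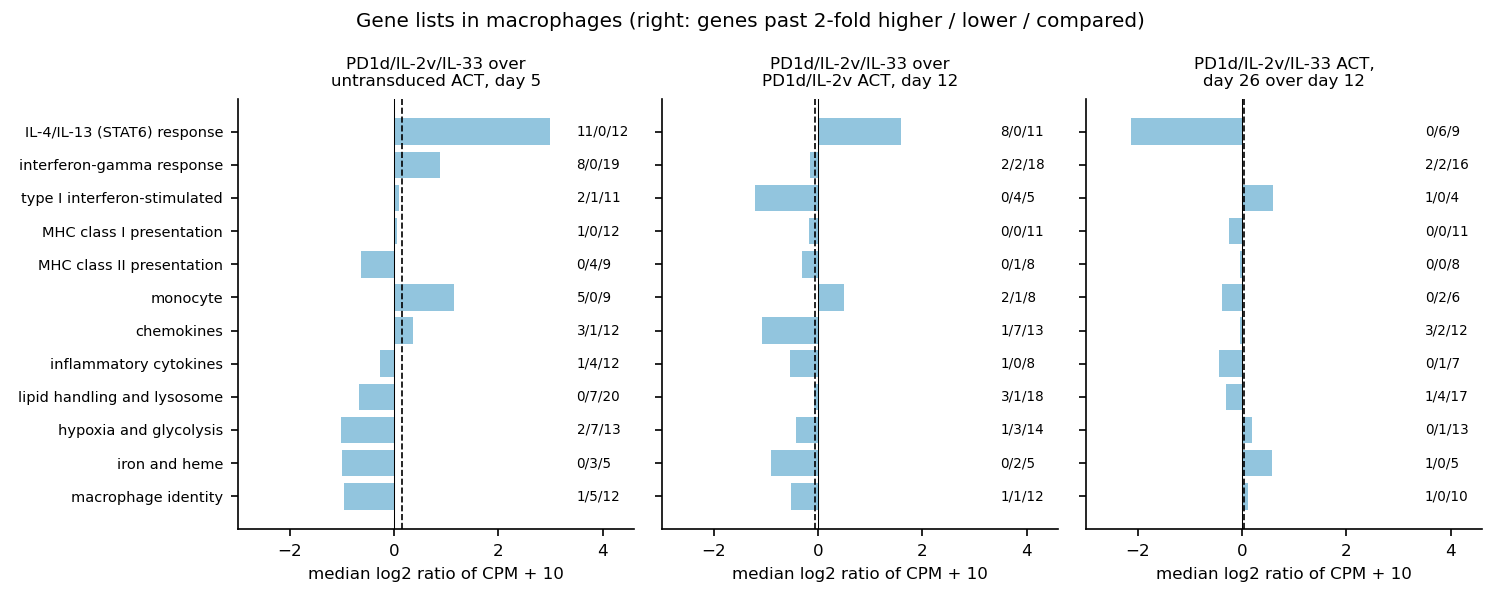
Median log2 ratio of CPM + 10 (x axis) of each gene list (y axis) in the 3 comparisons of macrophages, with a dashed line at the median of all genes compared and, at the right, the numbers of genes past 2-fold higher, lower and compared. The bar of the IL-4/IL-13 list lies at 2.99 at day 5, 1.59 at day 12 and -2.12 for day 26 over day 12.

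After thinning to 2000 UMIs, Mrc1-positive macrophages were, among the 5 libraries with at least 25 macrophages, most frequent after combination ACT at days 5 and 12. Mrc1 was found in 36.5% (26.9% to 46.9%) of macrophages after combination ACT at day 5, 32.0% at day 12 and 15.2% at day 26, and in 7.14% and 4.65% after untransduced ACT at day 5 and PD1d/IL-2v ACT at day 12. Its share in CD8+ T cells was at most 0.202%. Nos2, the inducible nitric oxide synthase, was found in at most 6.98% of the macrophages of any library. Mki67, a marker of proliferation, was found in at most 6.98% of macrophages, and in 13.8% of CD8+ T cells after combination ACT at day 5. Before thinning the highest share of Nos2 was 18.6%, after PD1d/IL-2v ACT.

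Within a library, macrophages differed from Lyz2-high C1q-low cells by the rule itself, so the following is a description. In the 5 libraries with at least 20 cells of each, 716 of 2023 genes had the same sign in every library, 22 (1.09%) were higher in all with a median past 2-fold and 43 (2.13%) lower. After the C1q genes the highest medians were those of Spp1, encoding osteopontin, at 2.21 (0.92 to 3.36 over libraries), Ccl7 at 2.19, Cd63 at 2.13, Gatm at 1.63 and Lgmn, a lysosomal protease, at 1.46. Apoe was at 1.34 and Cxcl16 at 1.35. The lowest were Hp at -2.74 (-3.92 to -0.96), Ifitm6 at -2.37, Gpcpd1 at -2.25 and Slpi at -2.06, genes that monocytes and neutrophils express. Of all 2023 genes 323 (16%) were higher and 393 (19.4%) lower in every library, with a median of -0.02. The list with the most genes higher in every library was that of hypoxia and glycolysis, at 9 of 13 with a median of 0.24, followed by lipid handling and lysosomes, at 8 of 17 with a median of 0.73, and MHC class II, at 5 of 8 with a median of 0.96. Of 9 monocyte genes 6 were lower in every library, with a median of -0.79. For all 10 of the lowest genes the difference was smallest in the library after combination ACT at day 5.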

How the data were processed

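CD45+ cells were profiled with 10x 5′ libraries. Per the labels, the authors made UMI counts with Cell Ranger 2.2.0 on GRCm38 (the paper's methods name a later version). The deposited matrix of counts, not normalized, held 27998 genes, 15700 barcodes and 98669511 UMIs. Cells with 500 to 6000 genes, 2000 to 40000 UMIs, 5% to 60% ribosomal and under 10% mitochondrial UMIs were kept, and no doublet caller was run beyond the exclusion of Cd3e, Ncr1 and Cd79a. The macrophages and the gene lists were chosen with earlier results of these data known.

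UMIs were summed over macrophages of a library and scaled to CPM, and log2 ratios used a pseudocount of 10 CPM (Python 3.11.15, numpy 2.4.6, scipy 1.17.1, pandas 2.3.3). edgeR 4.0.16 gave the TMM factors. Named genes were members of the lists, the 5 highest and 5 lowest log2 ratios of each pair of libraries and, against C1q-low cells, the 10 highest and 10 lowest medians with 1 sign in every library. Of 298 listed genes 297 were found. A few of them are counted in their lists but not reported by name here. Alternatives changed the pseudocount, scaling, gate, minimum count and weighting of cells. Those that leave out the deepest or top cell, weight cells equally, exclude lymphocytes more strictly, choose genes by the libraries outside a pair, remove cells over 20000 UMIs or lower C1q to 3 were chosen after seeing the data.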

Additional observations from a re-analysis of the deposited data

Results flagged for a closer look

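Outside the cell filter, 17 barcodes met the same gene rule as the macrophages, a signal in data that the comparisons did not use. They were 3, 2, 1, 4, 0, 2, 5 and 0 barcodes in non-treated tumors, after untransduced ACT at days 5 and 12, after PD1d/IL-2v ACT, after PD1d/IL-33 ACT and after the combination of both at days 5, 12 and 26, and 10 of them had fewer than 2000 UMIs.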

How the results depend on the processing

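The number of macrophages was 118 under the stricter cell filter of the study's later experiment. The difference in share of Lyz2-high cells ranged from -4.66 to 8.48 percentage points when 1 library was left out, and was 3.29, 5.78, 5.42, 4.64 and 6.07 under the other gates, with a two-sided exact permutation p of 0.4 or more throughout. At a minimum of 10 UMIs, 1089 genes were past 2-fold at day 5, 959 at day 12 and 796 for day 26 over day 12, against 598, 257 and 149 at 50 UMIs. With genes chosen by at least 50 UMIs in macrophages of the other libraries, 673 were past 2-fold at day 12 and 593 for day 26 over day 12. These counts stayed within 1.5 times under the other alternatives. Of the named genes, Cxcl1 (0.62) and Cxcl3 (0.42) at day 5, Gpnmb at day 12 (-1.12) and Ccl6 (0.019) and Gpnmb (0.00) for day 26 over day 12 changed sign without each gene's top cell. Without the deepest macrophages Gpnmb at day 12 (-1.68) and Ccl6 (0.25), Ctsd (0.16), Gpnmb (0.82) and Spp1 (0.17) for day 26 over day 12 did. No paired analysis was possible because each treatment and day had 1 library. The fit of IL-33 over libraries and its 14 alternatives were not run, since only 2 libraries without IL-33 had 20 or more macrophages, nor were the comparisons that needed the PD1d/IL-33 (3 cells) or non-treated (6 cells) libraries. With 25 to 96 macrophages in a library, genes at a few UMIs could not be compared.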
